A study of Homo sapiens with 12 samples.

Results

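Transcripts of 8 metalloprotease genes, ADAM9, ADAM10, ADAM12, ADAM17, ADAM19, ADAMTS1, ADAMTS4 and ADAMTS5, were followed in 12 RNA-seq libraries of LMSU, a human gastric cancer cell line labelled as carrying the p53 variant R175H. The genes were taken by name from a count table of 25435 gene symbols, and all 8 passed the filter on low counts that left 13365 genes for testing. The libraries form 6 groups of 2. The knockout arm, labelled without doxycycline, holds a knockout control (GFP_V2, labelled as having the p53 variant) and a p53 knockout (GFP_sg-1, labelled as lacking it). The knockdown arm, labelled with doxycycline, holds scramble and vector, labelled as having the variant, and p53 shRNA 1 and p53 shRNA 2, labelled as lacking it. The labels do not say whether a knockout or hairpin line is 1 clone or a pool, and nothing in them ties the replicates to separate cultures, so p-values measure only the spread between libraries, which may be technical.

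Total counts per library ran from 9738094 to 16823246. Levels are CPM, the count scaled to library depth with TMM factors, and differences are log2 fold changes from edgeR's quasi-likelihood test, called at a Benjamini-Hochberg adjusted p below 0.05 over the 13365 genes. The knockout control libraries stood apart: the chi-square per degree of freedom between its replicates was 34.4, against 9.999 in the knockout and 1.56 to 2.31 in the knockdown groups. Epithelial markers EPCAM, CDH1 and KRT19 had 0 to 4 counts in every library, whereas KRT8 and KRT18 reached at least 63.9 and 184.7 CPM. Of 5 gastric lineage genes in the table none was tested, 2 were at 0 in all libraries and their summed level was at most 0.557 CPM. All 11 mesenchymal and fibroblast markers passed the filter, with summed levels of 10472 to 12817 CPM in the knockout arm and 31946 to 37878 CPM in the knockdown arm. The arms differ in construct and doxycycline, which cannot be told apart, and levels were not tested between them.

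ADAM proteins are membrane-anchored metalloproteases that cut other proteins at the cell surface, a process called ectodomain shedding, which frees growth factors, cytokines and receptor fragments. ADAMTS proteins are their secreted relatives, carry thrombospondin repeats and act in the extracellular matrix, where several of them cut large proteoglycans such as versican and aggrecan. Both families are made as inactive precursors, are activated by proprotein convertases such as furin and are held in check by tissue inhibitors of metalloproteases.

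**Figure D1:**
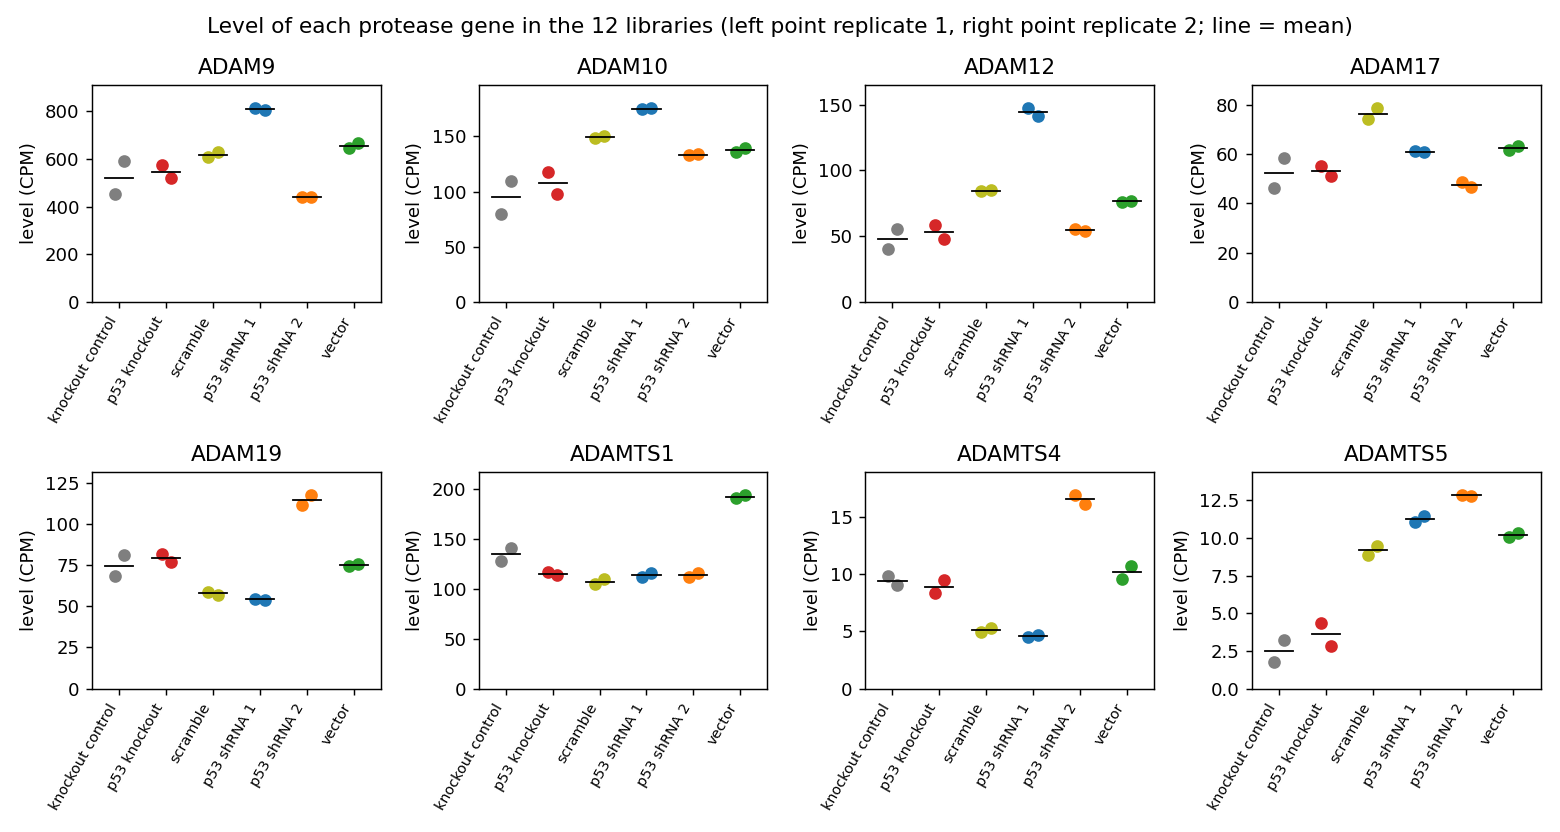
Level of each of the 8 protease genes (CPM, linear axis from 0) in the 6 groups; each point is 1 library and the line is the mean of 2. ADAM9 and ADAM12 were highest with shRNA 1, ADAM19 and ADAMTS4 highest with shRNA 2, and ADAMTS1 highest in vector.

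Per kilobase of exon, ADAM9 was the most abundant of the 8 transcripts in every group, from 74.1 CPM per kb with shRNA 2 to 136 CPM per kb with shRNA 1. ADAMTS1 came next in every group, from 20.7 CPM per kb in scramble to 37.0 CPM per kb in vector. This order rests on the joined length of all annotated exons, 13123 bp for ADAM10 and 5191 bp for ADAMTS1. The isoforms present were not measured. In mean CPM, ADAM10 exceeded ADAMTS1 in scramble (149.7 against 107.3), shRNA 1 (175.1 against 113.6) and shRNA 2 (133.4 against 113.8). In vector and the knockout arm it did not. ADAMTS4 and ADAMTS5 were the lowest, at 0.450 to 1.62 and 0.275 to 1.41 CPM per kb. The middle of the order depended on the group. In scramble it ran ADAM17 (17.3 CPM per kb), ADAM10 (11.4), ADAM12 (9.57) and ADAM19 (8.19), each apart from its neighbour by more than the spread of 2 libraries. With shRNA 1 ADAM12 led these 4 genes at 16.4 ± 0.447 CPM per kb (SD, n = 2), and with shRNA 2 ADAM19 led them at 16.3 ± 0.599 CPM per kb, with ADAM12 last at 6.21 ± 0.118. In vector ADAM19 (10.7 ± 0.118) and ADAM10 (10.5 ± 0.180) lay within their spread of each other.

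The direct comparison of the hairpins asks whether 2 constructs against the same transcript left the proteases at the same level. They did not for 4 of the 8 genes. ADAM9 and ADAM12 were higher with shRNA 1, and ADAM19 and ADAMTS4 were higher with shRNA 2. Across all tested genes 14.3% were called in this comparison, 7.07% higher and 7.21% lower with shRNA 1; with 1 library left out, 682 to 3747 genes were called in place of 1909. The libraries of the 2 hairpins did not overlap for 7 genes, ADAMTS1 being the exception, and for 66.6% of all tested genes. The median absolute log2 fold change was 0.64 over the 8 genes and 0.22 over all tested genes. The 8 genes were chosen with earlier results of these data known, so these values cannot test whether the set stands apart. Summed mesenchymal and fibroblast markers were 35676 to 37878 CPM with shRNA 1 and 31946 to 32259 CPM with shRNA 2, against 32260 to 33457 CPM in scramble and 33977 to 34035 CPM in vector; their part in the protease differences was not tested. Of the 11, COL3A1 was higher with shRNA 1 (log2 0.68), while DCN (-0.95), LUM (-1.05) and PDGFRB (-0.48) were lower. Of 4 tested epithelial markers 1 was called: CLDN4, at 6 to 19 counts per library, was higher with shRNA 1 (log2 1.43, edgeR adjusted p 0.0463). In bulk RNA, fewer cells that express a gene and less RNA per cell cannot be told apart.

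**Figure D2:**
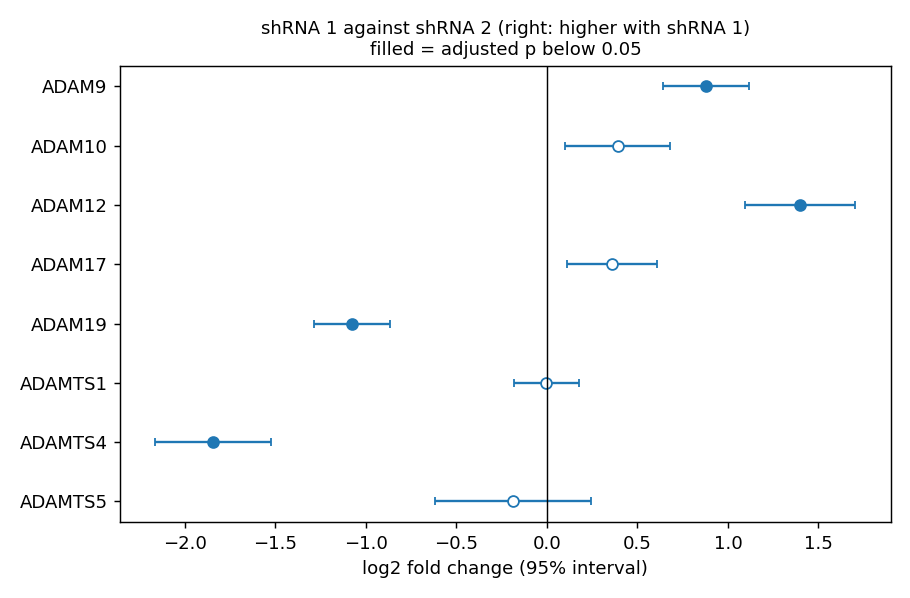
Log2 fold change of shRNA 1 against shRNA 2 for the 8 genes (horizontal axis), with 95% intervals from edgeR's fit to 12 libraries; filled points passed an adjusted p of 0.05. The called genes run from -1.85 (ADAMTS4) to 1.40 (ADAM12), and ADAMTS1 sits at 0.

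ADAM12 encodes a protease that cuts HB-EGF and insulin-like growth factor binding proteins and is known from myoblast fusion and placenta. Its gene spans chr10:126012381-126388455 on the minus strand (GRCh38, GENCODE v29). It was at 147 and 142 CPM with shRNA 1, 55.6 and 54.1 CPM with shRNA 2, 84.1 and 84.9 CPM in scramble, and 76.2 and 76.99 CPM in vector. Both shRNA 1 libraries stood above, and both shRNA 2 libraries below, all 4 control libraries of that arm. The difference between hairpins was 1.40 (SE 0.14, 2.64-fold, adjusted p 0.000141).

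ADAM9, a widely expressed protease with roles in cell adhesion and shedding (chr8:38996869-39105144, plus strand, GRCh38), showed the same order at a smaller size. It was at 813 and 804 CPM with shRNA 1, 439.7 and 438.9 CPM with shRNA 2, 609 and 627 CPM in scramble, and 646 and 667 CPM in vector. Again the control libraries lay between the hairpins without overlap. ADAM9 was 1.84-fold higher with shRNA 1 (log2 0.88, SE 0.11, adjusted p 0.000466).

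ADAM19, also called meltrin beta, cuts neuregulin and is known from heart development (chr5:157395534-157575775, minus strand, GRCh38). It was at 54.5 and 54.0 CPM with shRNA 1, 111.5 and 117 CPM with shRNA 2, 58.6 and 56.8 CPM in scramble, and 74.5 and 75.7 CPM in vector. The shRNA 2 libraries stood above every other library of the study, and the shRNA 1 libraries were the lowest. The difference was -1.08 (SE 0.097, 2.11-fold, adjusted p 8.34e-05).

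ADAMTS4, one of the aggrecanases named for cutting the cartilage proteoglycan aggrecan (chr1:161184308-161199056, minus strand, GRCh38), had the largest difference of the 8. It was at 4.49 and 4.71 CPM with shRNA 1, 16.9 and 16.2 CPM with shRNA 2, 4.93 and 5.32 CPM in scramble, and 9.58 and 10.8 CPM in vector. As for ADAM19, the shRNA 2 libraries were the highest of all 12 and the shRNA 1 libraries the lowest. The difference was -1.85 (SE 0.15, 3.59-fold, adjusted p 3.2e-05) and rests on 44 to 210 counts per hairpin library. The 4 called genes kept their call in 22 of 22 alternative settings, with log2 fold changes of 1.37 to 1.43 for ADAM12, 0.86 to 0.91 for ADAM9, -1.11 to -1.04 for ADAM19 and -1.88 to -1.81 for ADAMTS4.

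The promoters of ADAM12 and ADAM19 are shown because these 2 genes of one family differed between the hairpins in opposite directions. RefSeq windows of 250 bases before to 50 after the start (GRCh38.p14) were matched for 4 of the 8 genes: ADAM10, ADAM12, ADAM17 and ADAM19. Each is written 5′ to 3′ along the gene, here the minus strand, with matches to 4 motifs on either strand in capitals. The GC box of Sp1-type factors was searched as GGGCGG. The core of the site that hypoxia-inducible factors bind was searched as ACGTG. The site of AP-1, the Fos and Jun dimer, was searched as TGANTCA. The TATA box of core promoters was searched as TATAAA, and no match to one motif overlapped a match to another.
ADAM12, chr10:126388428-126388727: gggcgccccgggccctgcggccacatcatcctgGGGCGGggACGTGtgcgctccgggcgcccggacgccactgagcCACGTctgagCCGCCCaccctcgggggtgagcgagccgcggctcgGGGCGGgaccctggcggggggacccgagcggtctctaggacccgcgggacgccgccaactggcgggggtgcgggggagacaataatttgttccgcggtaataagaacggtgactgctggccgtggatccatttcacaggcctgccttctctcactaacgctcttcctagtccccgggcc
ADAM19, chr5:157575726-157576025: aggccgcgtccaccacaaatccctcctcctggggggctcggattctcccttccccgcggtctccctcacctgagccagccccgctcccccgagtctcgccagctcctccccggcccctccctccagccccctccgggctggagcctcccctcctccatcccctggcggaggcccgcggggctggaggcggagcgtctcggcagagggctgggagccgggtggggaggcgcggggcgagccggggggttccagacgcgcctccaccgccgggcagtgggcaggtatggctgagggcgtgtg
The ADAM12 window is 71% G or C and holds 3 GC boxes and 2 hypoxia cores. The ADAM19 window is 75.7% G or C and holds none of the 4 motifs. ADAM17 has 3 GC boxes and 1 hypoxia core, and ADAM10 has 1 GC box and 2 overlapping hypoxia cores on opposite strands. Over 27305 promoters of the same length, 44.6% hold a GC box, 21.6% the hypoxia core, 7.76% the AP-1 letters and 12% the TATA letters. A match describes letters only and is no evidence of binding.

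The other 4 genes were not called between the hairpins. ADAM17, the sheddase of TNF and several EGF receptor ligands (chr2:9488486-9556732, minus strand, GRCh38), was at 61.2 and 60.8 CPM with shRNA 1 and 48.6 and 46.5 CPM with shRNA 2. The difference was 0.36 (95% interval 0.11 to 0.61, adjusted p 0.0544). ADAM17 shares 28.5% of its exon bases with IAH1 on the opposite strand, and the strand setting of the counting is not given in the sources used here, so some of its reads could belong to IAH1. ADAM10, the sheddase of Notch receptors and cadherins (chr15:58588807-58749978, minus strand, GRCh38), was at 174.5 and 176 CPM with shRNA 1 and 133.1 and 133.7 CPM with shRNA 2, a difference of 0.39 (95% interval 0.10 to 0.68, adjusted p 0.0728). Neither gene's libraries overlapped between hairpins. Without knockout control replicate 1 or replicate 2 both passed: adjusted p 0.00195 and 0.00203 for ADAM17, and 0.000757 and 0.000767 for ADAM10. They also passed when the 8 libraries of the knockdown arm were fitted alone, at 4.13e-05 and 1.38e-08. In those fits 27.5%, 27.4% and 38.8% of all tested genes were called between the hairpins.

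ADAMTS1, a protease of versican and aggrecan that also restrains blood vessel growth (chr21:26835747-26845409, minus strand, GRCh38), was at 111.7 and 115 CPM with shRNA 1 and 111.9 and 116 CPM with shRNA 2. The hairpins overlapped, and the difference was -0.0025 (95% interval -0.18 to 0.18, adjusted p 0.988). ADAMTS5, the other main aggrecanase (chr21:26917912-26966513, minus strand, GRCh38), was at 11.1 and 11.5 CPM with shRNA 1 and 12.8 in both shRNA 2 libraries. Its difference was -0.19 (95% interval -0.62 to 0.24, adjusted p 0.5852), an interval that still holds changes of about the size seen for ADAM10.

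Each hairpin was then set against scramble and against vector. These comparisons share control libraries, so their values are given side by side. With shRNA 1 against scramble, 2 of 8 genes were higher and 0 lower, where 4.4% of all genes were higher, 5.01% lower and 9.41% called in either direction. ADAM12 rose by 0.78 (SE 0.14, adjusted p 0.0049) and ADAM9 by 0.39 (SE 0.11, adjusted p 0.0462). The ADAM9 call held in 10 of 22 alternative settings: it was lost without any 1 of the 10 libraries outside the knockout control (adjusted p 0.0514 to 0.244). The ADAM12 call was lost without scramble replicate 1 (0.0563), scramble replicate 2 (0.0523) or shRNA 1 replicate 1 (0.0567). The libraries of shRNA 1 and scramble did not overlap for any of the 8 genes, nor for 62% of all tested genes, and 6 of the 8 were not called, with log2 fold changes from -0.33 (ADAM17, adjusted p 0.0956) to 0.29 (ADAMTS5). ADAM17 and ADAM10 (0.23) passed without knockout control replicate 1 or replicate 2, where 21.2% and 21.1% of all tested genes were called.

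With shRNA 2 against scramble, 5 of 8 genes were called, 2 higher and 3 lower, where 7.74% of all genes were called, 3.58% higher and 4.15% lower. ADAMTS4 rose by 1.69 (SE 0.14, adjusted p 5.71e-05) and ADAM19 by 0.99 (SE 0.096, adjusted p 0.000183). ADAM17 fell by 0.69 (SE 0.11, adjusted p 0.00381), from 74.2 and 78.7 CPM in scramble. ADAM12 fell by 0.62 (SE 0.14, adjusted p 0.0198) and ADAM9 by 0.49 (SE 0.11, adjusted p 0.0186). The ADAM9 and ADAM12 calls were lost without any 1 of the 4 compared libraries (adjusted p 0.103 to 0.155), and that of ADAM17 without scramble replicate 2 (0.0529) or shRNA 2 replicate 2 (0.0613). ADAMTS5 was at 0.48 (adjusted p 0.173), and at 0.44 to 0.52 with 1 library left out. It stayed uncalled in 18 of 22 alternative settings.

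Against vector, ADAM12 was again higher with shRNA 1 and lower with shRNA 2, and ADAMTS1 was lower with both. With shRNA 1 against vector 4 of 8 genes were called, where 13% of all genes were called, 5.78% higher and 7.26% lower. ADAM12 was higher by 0.92 (adjusted p 0.00148), and ADAMTS4 fell by 1.15 (adjusted p 0.000649), ADAMTS1 by 0.76 (adjusted p 0.00018) and ADAM19 by 0.47 (adjusted p 0.00913; 0.0672 to 0.0828 without any 1 of the 4 compared libraries). ADAM9 (0.30, adjusted p 0.0922) and ADAM10 (0.35, adjusted p 0.11) were not called. With 1 library left out they ran from 0.28 to 0.32 and from 0.33 to 0.36. Each stayed uncalled in 17 of 22 alternative settings. With shRNA 2 against vector 6 of 8 were called, where 21% of all genes were called, 9.21% higher and 11.7% lower. ADAMTS4 was higher by 0.70 (adjusted p 0.00203) and ADAM19 by 0.61 (adjusted p 0.000849), while ADAMTS1 fell by 0.76 (adjusted p 6.07e-05), ADAM9 by 0.58 (adjusted p 0.00284), ADAM12 by 0.48 (adjusted p 0.029) and ADAM17 by 0.39 (adjusted p 0.0278). The ADAM12 and ADAM17 calls were lost without any 1 of the 4 compared libraries, at adjusted p 0.105 to 0.164.

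**Figure D3:**
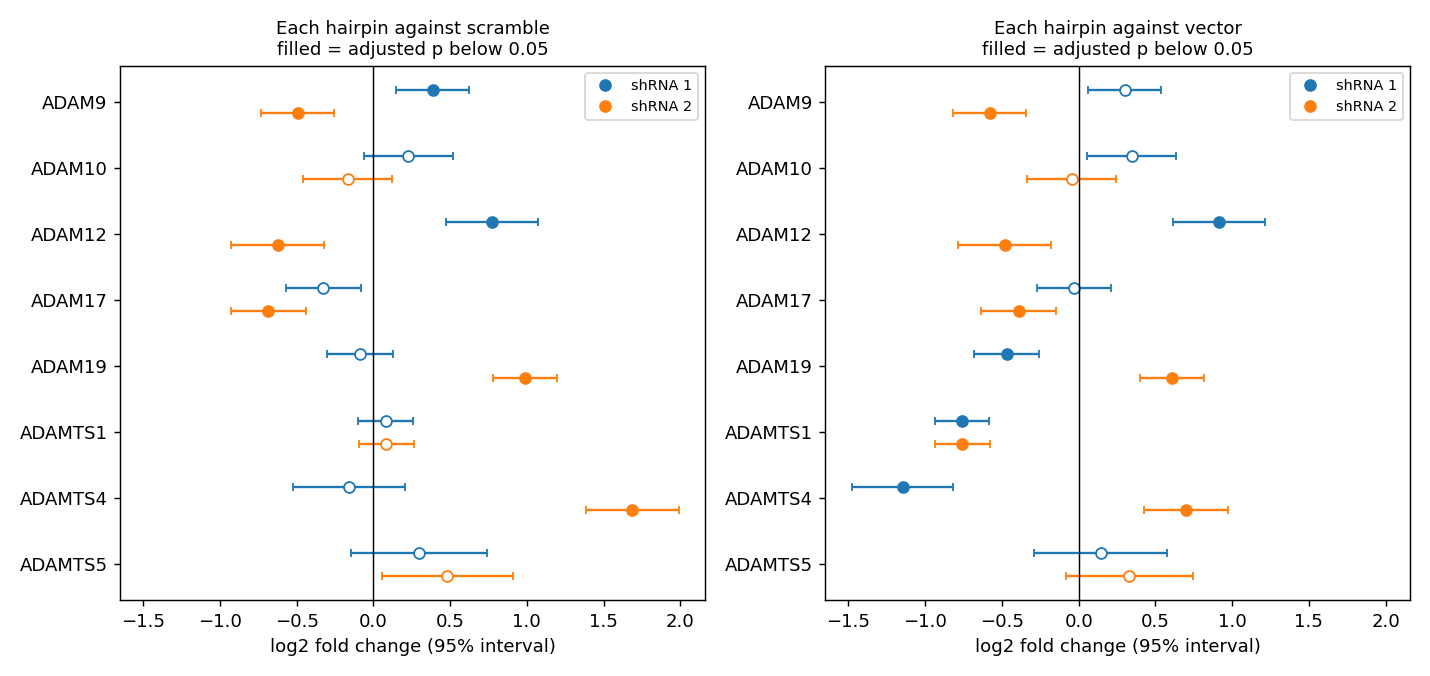
Log2 fold change of each hairpin against scramble (left) and against vector (right) with 95% intervals; blue is shRNA 1, orange shRNA 2, and filled points passed an adjusted p of 0.05. ADAM9, ADAM10, ADAM12, ADAM19 and ADAMTS4 lie on opposite sides of 0 for the 2 hairpins against both controls. Of these, only ADAM12 has filled points for both hairpins against both controls. ADAMTS1 is near 0 against scramble but at -0.76 with both hairpins against vector.

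Scramble and vector, which both keep the variant per the labels, differed in 3 of the 8 genes, all lower in scramble, where 15.3% of all genes were called, 7.1% higher and 8.16% lower. ADAMTS1 was at 105.3 and 109.4 CPM in scramble and 190.6 and 194.05 CPM in vector, a fall of 0.84 (SE 0.081, adjusted p 4.92e-05). ADAMTS4 fell by 0.99 (adjusted p 0.000744) and ADAM19 by 0.38 (adjusted p 0.0203; 0.0994 to 0.143 without any 1 of the 4 compared libraries). ADAMTS1 lay below vector with both hairpins, but against scramble it was at 0.08 with either hairpin, with intervals of -0.10 to 0.26 and -0.09 to 0.26. ADAM17 was 0.29 higher in scramble without passing the test (adjusted p 0.0966), and 0.25 to 0.33 higher with 1 library left out. It stayed uncalled in 18 of 22 alternative settings.

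In the knockout arm 0 of the 8 genes were called, where 0.015% of all genes were called, 0.00748% in each direction. At an unadjusted p below 0.05 there was 1 of the 8, ADAMTS1, against 6.43% of all tested genes. It was also the only one of the 8 without overlap between the groups, which 23.2% of all tested genes lacked too. It was at 128 and 141 CPM in the control and 116 and 114 CPM in the knockout (log2 -0.23, SE 0.081, adjusted p 0.698). ADAM12 was at 39.9 and 55.2 CPM in the control and 58.6 and 47.5 CPM in the knockout (0.16, adjusted p 0.794). ADAM19 was at 68.5 and 80.8 CPM in the control and 81.5 and 76.8 CPM in the knockout (0.09, adjusted p 0.815). ADAMTS4 was at 9.81 and 9.02 CPM and then 8.38 and 9.48 CPM (-0.08, adjusted p 0.869). ADAM9 was at 454 and 589.8 CPM in the control and 573 and 521 CPM in the knockout (0.07, adjusted p 0.854). For ADAM9, ADAM12 and ADAM19 both knockout libraries lay within or just past the gap between the control replicates.

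ADAM10 was at 79.6 and 109.97 CPM in the control and 117 and 97.7 CPM in the knockout, and ADAM17 at 46.1 and 58.5 CPM and then 55.3 and 51.2 CPM. ADAMTS5, at 25 to 59 counts per library, was at 1.74 and 3.23 CPM in the control and 4.38 and 2.84 CPM in the knockout (0.56, 95% interval -0.05 to 1.17, adjusted p 0.777). Its level in the knockdown arm was 8.90 to 12.8 CPM. Control replicate 2 exceeded replicate 1 for 7 of the 8 genes, ADAMTS4 being the exception. In the knockout, replicate 1 exceeded replicate 2 for the same 7 genes, and ADAMTS4 again went the other way. Over all tested genes the replicate differences of the 2 groups had a Pearson r of -0.469. The share of all tested genes with this pattern was not computed. Without control replicate 2, 4 genes passed: ADAM10 at 0.43 (adjusted p 0.00418), ADAM9 at 0.27 (0.0116), ADAM12 at 0.41 (0.0122) and ADAMTS5 at 1.03 (0.0175). In that fit 30.3% of all tested genes were called. Without control replicate 1, where 0.125% of all tested genes were called, 0 passed, and ADAM9 (-0.10), ADAM10 (-0.03), ADAM12 (-0.05), ADAM17 (-0.13) and ADAM19 (-0.03) changed sign. With 1 library left in the control, that library was assumed to vary like the other groups.

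**Figure D4:**
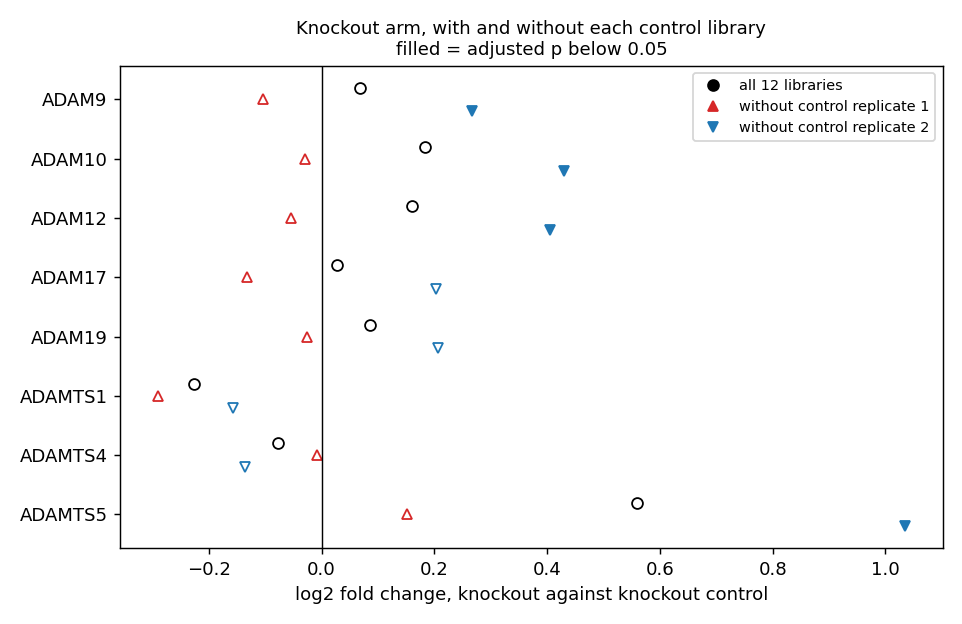
Log2 fold change of the knockout against its control for the 8 genes (horizontal axis) from all 12 libraries (circles), without control replicate 1 (upward triangles) and without control replicate 2 (downward triangles); filled symbols passed an adjusted p of 0.05. The 4 filled symbols, ADAM9, ADAM10, ADAM12 and ADAMTS5, all come from the fit without control replicate 2, in which 30.3% of all tested genes were called.

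The knockout effect minus the mean effect of both hairpins against scramble was tested in the same fit and called 0 of 8 genes, where 1.1% of all genes were called, 0.643% higher and 0.456% lower. At an unadjusted p below 0.05 there were 4 of the 8, against 14.6% of all tested genes. ADAMTS4 was nearest, at -0.84 (95% interval -1.26 to -0.43, adjusted p 0.0588), followed by ADAM17 at 0.53 (0.21 to 0.85, adjusted p 0.109). For ADAM9 and ADAM12 the mean of both hairpins averages opposite changes, so their small differences (0.12 and 0.09) describe that mean and neither hairpin alone. The same holds for ADAM10 (0.15), at 0.23 with shRNA 1 and -0.17 with shRNA 2, neither called. For ADAM19 (-0.09 and 0.99 with shRNA 1 and shRNA 2) and ADAMTS4 (-0.16 and 1.69) the mean likewise joins unequal changes and describes neither hairpin. Without knockout control replicate 2, ADAM9, ADAM10, ADAM17 and ADAMTS4 passed (adjusted p 0.0148, 0.0195, 0.000556 and 0.00751), and without replicate 1 ADAM19 and ADAMTS1 did (0.0149 and 0.0309). Of all tested genes 24.5% were called without replicate 2 and 5.18% without replicate 1.

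ADAM19 and ADAMTS4, which lie on different chromosomes, had the most similar pattern of any pair among the 8 genes. Over the 12 libraries their log2 levels had a Pearson r of 0.949, given as a description since libraries of a group are not independent points. Both were lowest with shRNA 1, next in scramble, and highest with shRNA 2. Each was also the most alike of 11731 tested protein-coding genes to the other. The next most alike to ADAM19 were IGF2BP1 (0.94) and KIAA0753 (0.91), and to ADAMTS4 SYS1 (0.91) and FAM83G (0.87). ADAM9 was most like ASAP2 (0.97), UGP2 (0.95) and ATP6V1A (0.95), and ADAM12 most like ZNF652 (0.97), PXYLP1 (0.96) and APPBP2 (0.96). ADAM9 and ADAM12 had an r of 0.896 with each other, and ADAM9 and ADAMTS4 one of -0.801.

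**Figure D5:**
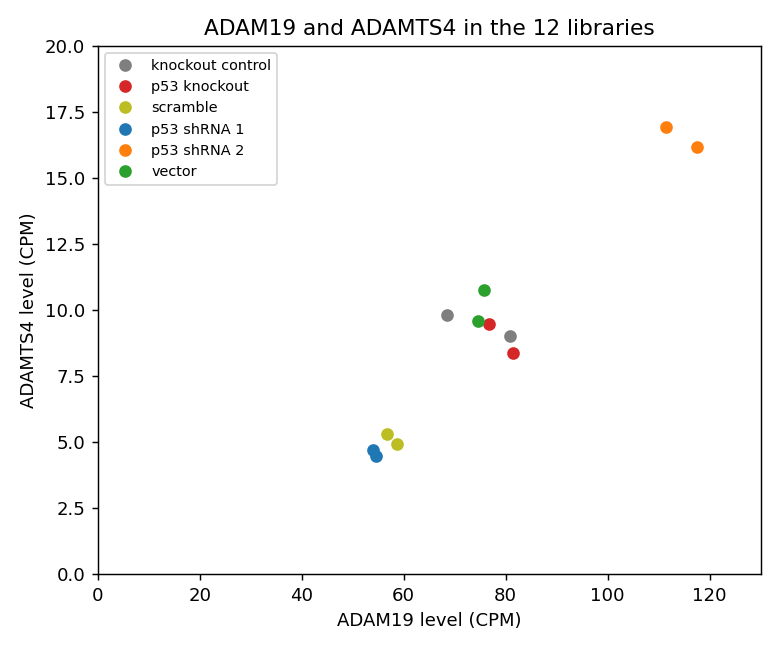
ADAM19 level (horizontal, CPM) against ADAMTS4 level (vertical, CPM) in the 12 libraries, coloured by group, on linear axes from 0. The shRNA 2 libraries sit at the upper right (111.5 and 117 CPM of ADAM19), and scramble and shRNA 1 lie together at the lower left.

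The remaining genes of both families and the genes around them were read from 8 lists with 95 entries, of which 94 were in the table and 58 were tested. Between the hairpins 7 of the 58 were higher with shRNA 1 and 6 lower, where 7.07% of all tested genes were higher and 7.21% lower, and in the knockout 0 were called. Among other ADAM genes 6 of 16 were tested and 1 was called: ADAM8, a protease of leukocytes and invasive tumours, was at a mean of 6.84 CPM with shRNA 1 and 14.02 CPM with shRNA 2 (log2 -1.03, adjusted p 0.000879). ADAM8 was also 0.62 higher with shRNA 2 than in scramble (adjusted p 0.0166; 0.0838 to 0.161 without any 1 of the 4 compared libraries). ADAM11 (0.83), ADAM22 (0.57) and ADAM23 (0.44), which are ADAMs of the nervous system, were not called, at 9 to 53 counts per library. ADAM15 differed by 0.11 between the hairpins and ADAM32 was at 1 to 11 counts. Among other ADAMTS genes 7 of 16 were tested and 0 called between the hairpins. ADAMTS12 (-0.43, adjusted p 0.127), ADAMTS3 (0.42, adjusted p 0.151) and ADAMTS16 (-0.18, adjusted p 0.407) came nearest with ADAMTS13 (0.39, adjusted p 0.368, at 6 to 37 counts), and ADAMTS2, which processes fibrillar procollagen, was at -0.05.

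Of 5 tested ADAMTS-like genes, which lack the protease domain, 2 were higher with shRNA 1: ADAMTSL1 by 0.49 (adjusted p 0.00493) and THSD4 by 0.49 (adjusted p 0.0326). ADAMTSL4 was at 0.04 (adjusted p 0.861), ADAMTSL5 at -0.03 (adjusted p 0.923) and ADAMTSL3, with 4 to 55 counts, at 0.08 (adjusted p 0.914). Of 11 tested genes for sheddase maturation and trafficking, 2 were higher and 2 lower. TSPAN5 (0.54, adjusted p 0.00222) and TSPAN17 (0.53, adjusted p 0.0394), tetraspanins that carry ADAM10 to the surface, were higher with shRNA 1. FRMD8 (-0.55, adjusted p 0.00393) and RHBDF2 (-0.40, adjusted p 0.0258), which encode the partner iTAP and the pseudoprotease iRhom2 that ADAM17 needs, were lower. FURIN, a convertase that activates the precursors, was at -0.19 (adjusted p 0.182). RHBDF1, which encodes iRhom1, was at -0.28 (adjusted p 0.296) and TSPAN10 at -0.50 (adjusted p 0.287).

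Among 7 tested inhibitors and clearance genes, TIMP2 was higher with shRNA 1 (0.58, adjusted p 0.000408) and SDC4, a cell-surface heparan sulfate proteoglycan, lower (-0.49, adjusted p 0.00568). TIMP3, the main tissue inhibitor of ADAM17 and the aggrecanases, was at -0.14 between the hairpins (adjusted p 0.219) and 0.32 higher with shRNA 2 than in scramble (adjusted p 0.0179; 0.129 to 0.165 without any 1 of the 4 compared libraries). TIMP1 was at -0.29 (adjusted p 0.291), LRP1, an endocytic receptor that clears proteases, at -0.07 (adjusted p 0.747), and TIMP4 had 2 to 35 counts. Of 16 tested shed substrates other than EGF receptor ligands, 2 were higher and 2 lower with shRNA 1. NOTCH1, cut by ADAM10 on ligand binding, was at -0.90 (adjusted p 0.000347) and PTK7 at -0.63 (adjusted p 0.00136), whereas SDC1 was at 0.44 (adjusted p 0.0245) and AXL at 0.27 (adjusted p 0.029). NOTCH1 had a mean of 112 CPM with shRNA 1 and 209.7 CPM with shRNA 2, against 99.7 CPM in scramble. The calls of ADAM8, TSPAN5, TIMP2, NOTCH1 and PTK7 held in 22 of 22 alternative settings. ADAMTSL1 lost its call without shRNA 2 replicate 2, FRMD8 without shRNA 1 replicate 1 or shRNA 2 replicate 1, and SDC4 without shRNA 1 replicate 1 or shRNA 2 replicate 2. SDC1 (17 of 22 settings), RHBDF2 (14), THSD4 (12), TSPAN17 (12) and AXL (11) lost theirs without any 1 of the 4 hairpin libraries, and the last 4 of these also without some control libraries.

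Of the EGF receptor ligands 4 of 7 were tested and 0 were called between the hairpins, while TGFA had 0 counts and AREG at most 4. BTC and EREG, both tested, had at most 14 and 13 counts. HBEGF, the ligand released by ADAM12 and ADAM17, had means of 6.94 CPM with shRNA 1, 8.68 CPM with shRNA 2, 14.5 CPM in scramble and 7.84 CPM in vector. It fell by 1.07 with shRNA 1 (adjusted p 0.00325) and by 0.74 with shRNA 2 (adjusted p 0.0179; 0.101 to 0.134 without any 1 of the 4 compared libraries) against scramble. Scramble itself stood above vector by 0.89 (adjusted p 0.00325), and against vector the hairpins were at -0.18 and 0.14, neither called. EGF, at 38 to 93 counts, had means of 5.10 CPM with shRNA 1, 3.65 CPM with shRNA 2, 6.10 CPM in scramble and 6.12 CPM in vector. It differed by 0.48 between the hairpins (adjusted p 0.137) and fell by 0.73 with shRNA 2 against scramble (adjusted p 0.0353) and by 0.74 against vector (adjusted p 0.0144). The call against scramble was lost without any 1 of the 8 libraries of the knockdown arm (0.0507 to 0.277), and that against vector without shRNA 2 replicate 1, shRNA 2 replicate 2 or vector replicate 1 (0.0696 to 0.104). Of the large proteoglycans 2 of 4 were tested and 0 called between the hairpins. VCAN, which encodes the versican cut by all 3 ADAMTS members here, was at -0.05 (adjusted p 0.895), with group means of 91.8 to 99.6 CPM in the knockdown arm and 21.2 and 28.2 CPM in the knockout arm, while ACAN had 0 counts in every library and BCAN 2 to 13.

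In the knockout the list genes nearest a call were ADAMTS2 (0.29, unadjusted p 0.016), CD44 (0.21, unadjusted p 0.0168) and EPHB2 (-0.21, unadjusted p 0.043), all with an edgeR adjusted p of at least 0.698. LRP1 was at 0.15, RHBDF1 at -0.27, ADAMTSL5 at -0.30, TSPAN10 at -0.49, TIMP4 at 0.38 and ADAMTS17, with 2 to 16 counts, at 1.21, with adjusted p of at least 0.772.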

How the data were processed

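RNA of 12 LMSU libraries in 6 groups of 2 was analysed. The deposited table gives whole-number counts of reads for each gene symbol, not normalised, in 1 column per library. The submitters' processing notes name bcl2fastq, STAR 2.5 and the hg19 build, and the labels' protocols name RNeasy extraction and a Kapa mRNA kit. For the annotation and the strand setting: not given in the sources used here.

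Counts were fitted in R 4.3.3 with edgeR 4.0.16: filterByExpr (minimum count 10), TMM, 1 coefficient per group over 12 libraries, and a two-sided quasi-likelihood F test. The fit had 6 residual degrees of freedom. The p-values and intervals used the total degrees of freedom of edgeR's test, which exceed the residual ones. Benjamini-Hochberg adjustment covered the 13365 genes of each of 8 comparisons. The biological coefficient of variation was 9.55% over all libraries, 3.08% in the knockdown arm and 15.6% in the knockout arm, so the pooled spread lies above that of the first and below that of the second. SE is the log2 fold change divided by the root of F. Gene lengths and overlaps are from GENCODE v29 (GRCh38), not the authors' build. The code was tested on simulated data with 200 changed genes. The members and lists were chosen with earlier results of these data known. From each list the text names up to 4 tested genes with the smallest adjusted p between the hairpins and up to 2 more from the knockout comparison, and the 3 most alike genes of each called member; lists held other ADAM, ADAMTS and ADAMTS-like genes, maturation and trafficking, inhibitors, EGF receptor ligands, other substrates and proteoglycans. A gene that the naming rule takes is not reported here. FURIN, TGFA, AREG and ACAN were named for their role, after their values were seen. Marker lists for endothelial (4 genes, summed level at most 1.78 CPM) and immune cells (5 genes, of which CD68 held nearly all of 187 to 451 CPM) were also read. Alternatives were DESeq2 1.42.0, limma-voom (limma 3.58.1), RLE and upper-quartile factors, no filter or a minimum count of 50, the compared or knockdown-arm libraries alone, a replicate block, an adjusted p below 0.01, and each library left out. Figures used matplotlib 3.10.9.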

Additional observations from a re-analysis of the deposited data

How the results depend on the processing

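The number of protease genes called between the hairpins stayed within 1.5 times 4 in every setting run and was 4 to 6 with 1 library left out. For shRNA 1 against scramble the number, 2, became 4 with the compared or the knockdown-arm libraries alone, where 31% and 33.2% of all tested genes were called. It became 1 with the replicate block or at an adjusted p below 0.01, where 917 and 492 genes were called in place of 1258. For shRNA 2 against scramble, 5 became 3 at an adjusted p below 0.01, where 378 genes were called in place of 1034. For scramble against vector, 3 became 6 with the compared libraries alone, where 44.4% of all tested genes were called. For the knockout the number stayed 0 wherever each group kept 2 libraries. For the knockout minus the hairpins, 0 became 1 with no filter, where 505 genes were called in place of 147. ADAMTS1 between the hairpins, at -0.0025, turned to 0.0316 with upper-quartile factors, 0.0071 with no filter and 0.0071 with a minimum count of 50, and ran from -0.0205 to 0.0246 with 1 library left out; ADAM17 with shRNA 1 against vector turned to 0.0066 with upper-quartile factors. With 1 library left out the knockout values ran from -0.10 to 0.27 for ADAM9, -0.0287 to 0.43 for ADAM10, -0.0535 to 0.41 for ADAM12, -0.13 to 0.20 for ADAM17, -0.0253 to 0.21 for ADAM19 and -0.17 to 0.0081 for ADAMTS4, and the knockout minus hairpin values from -0.0513 to 0.32 for ADAM9, -0.0595 to 0.40 for ADAM10, -0.13 to 0.33 for ADAM12 and -0.24 to 0.65 for ADAMTS5; the cause was not tested. Over all genes, calls between the hairpins rose from 1909 to 5032 with the compared and 5038 with the knockdown-arm libraries alone, fell to 854 at an adjusted p below 0.01, and with 1 library left out ran from 682 (without shRNA 2 replicate 2) to 3747 (without knockout control replicate 1). Calls over all genes in the knockout went from 2 to 20 with DESeq2, 64 with no filter, 0 with the compared libraries alone, 17 without control replicate 1 and 4135 without control replicate 2. Same-numbered libraries did not deviate together (r of replicate differences -0.469 in the knockout arm and -0.136 to 0.156 elsewhere). In the knockout arm they tended to deviate in opposite directions. These values cannot show whether same-numbered libraries were prepared together. The replicate block left 0 protease genes and 1 gene called in the knockout. The crossed replicate block, chosen after seeing the data, left 0 and 2. ADAMTS4 and ADAMTS5, at 25 to 210 counts per library, are the members whose precision depth limits most.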
